A study of Mus musculus with 12 samples.

Results

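The genes described here are the translation initiation factors and the aminoacyl-tRNA synthetases of mouse pancreatic tumor cells. They were chosen by name: protein-coding genes of the count table whose symbol begins with Eif1 to Eif6, and genes named as tRNA synthetases by their amino acid letter, with Eprs1, Farsa and Farsb. This gave 110 of 57278 genes, made up of 73 initiation factor genes and 37 synthetase genes. A filter on low counts left 15165 genes for testing, among them 56 of the 73 factors and all 37 synthetases. The naming rule used no measured value, although it was chosen with earlier results of these data known. Of the synthetases, 20 act in the cytosol and 17, whose symbols end in 2, act mainly in mitochondria. Among the 20, Gars1 and Kars1 also serve mitochondria.

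The 12 RNA-seq libraries came from 3 tumor cell lines, DDKC_9750, DDKC_9790 and DDKC_9804. All were isolated from pancreatic tumors of DDKC mice, which carry Dkk3-/- and Ptf1a Cre/+ with a Cre-activated oncogene. The Dkk3 null allele, with exon 2 replaced, was present in every cell of the mouse, whereas Cre was driven by Ptf1a in the pancreas. Untreated and treated cells thus shared the same alleles, and differed in exposure to recombinant DKK3 (rDKK3), a secreted glycoprotein of the Dickkopf family. The dose and time of rDKK3 for the RNA samples are not given in the sources used here. Each line gave 2 untreated and 2 rDKK3 libraries, and the age of the mice is not given.

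Eukaryotic translation starts when eIF2 brings initiator tRNA to the small ribosomal subunit, eIF3 holds the complex together, and the eIF4 factors recruit the capped mRNA. The kinases of the Eif2ak family phosphorylate eIF2 under stress, which limits the exchange factor eIF2B and lowers general initiation while the mRNA of the transcription factor ATF4 is translated more. ATF4 is known to induce amino acid synthesis genes and many cytosolic tRNA synthetases, the enzymes that load each tRNA with its amino acid.

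Total counts ranged from 3822987 to 24541083 per library, with a median of 14250180 in the 6 untreated libraries and 6579895.5 in the 6 rDKK3 libraries, so treated samples were shallower. Dkk3 had a single count over the 12 libraries. The 6 epithelial markers summed to between 3854 and 9668 CPM (counts scaled to library size), although Epcam had 154 counts in all. The keratins Krt7, Krt8, Krt18 and Krt19 were lower with rDKK3 in all 3 lines, as were 18.2% of all tested genes. Cdh1 had log2 fold changes of 0.42, -0.11 and 0.19 in DDKC_9750, DDKC_9790 and DDKC_9804, and Epcam 0.01, -0.04 and -0.82. The part of these markers in the changes below was not tested. The summed CPM of the other marker lists was 2.03 to 38.1 for 5 leukocyte genes (nearly all from Cd68, with Cd3e, Lyz2 and Adgre1 at 0), 0.399 to 11.7 for 5 acinar genes (nearly all from Cela1, with Ptf1a, Cpa1 and Amy2a5 at 0), 5.75 to 13 for 7 fibroblast genes and 0.874 to 17.4 for 3 endothelial genes (nearly all from Kdr). The 2 libraries of a line and condition differed by less than sampling noise once a shift common to all lower numbered against all higher numbered libraries was allowed (mean deviance per degree of freedom 0.78 over 12979 genes, and 0.72 over 91 members). They were therefore summed, which left 3 lines as the replicates of each condition. Levels below are CPM scaled by the trimmed mean of M values (TMM) in these 6 summed samples.

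No member passed the test for rDKK3 in the fit on summed counts (edgeR quasi-likelihood, line as block, adjusted p under 0.05). The same fit called 0.00659% of all tested genes higher and 0% lower, that is 1 gene and none. DESeq2 on the same sums called 1 member, the factor Eif4g3. At an unadjusted p under 0.05, 3 of the 56 factors and 2 of the 37 synthetases were past the threshold: 1 factor and 2 synthetases higher (background 3.38%) and 2 factors lower (background 5.16%). A second fit took the 12 libraries as separate samples. There, 13 of 37 synthetases passed as higher and 2 as lower, against 2 and 6 of 56 factors, where 7.95% of all genes were called higher and 10.1% lower. Because paired libraries were close to repeats of each other, p-values of this second fit measured a spread that is largely technical. Below, the verbs rose and fell are used only for calls of the 12-library edgeR fit, and every such gene had an adjusted p of at least 0.578 in the fit on summed counts.

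The cytosolic synthetases stood mostly on the higher side after rDKK3. Over the 20 genes, the median log2 fold change was 0.29, against -0.01 over all genes tested and -0.01 over the 17 mitochondrial synthetases. By line, the median was 0.20 in DDKC_9750, 0.04 in DDKC_9790 and 0.51 in DDKC_9804. In DDKC_9750 16 of 20 were higher with rDKK3 (48.5% of all genes were), in DDKC_9790 13 of 20 (49.4%) and in DDKC_9804 17 of 20 (45.2%). In all 3 lines 11 of 20 were higher, against 14.2% of all genes, and 2 were lower, against 18.2%. The summed level of the 20 genes went from 2728 to 3200 CPM in DDKC_9750, from 4902 to 4976 CPM in DDKC_9790 and from 3959 to 5721 CPM in DDKC_9804. DDKC_9790 thus began highest and moved least. The median was 0.11 without DDKC_9804 and 0.43 without DDKC_9790. In the 12-library fit, 11 of the 20 rose and 1 fell, against 7.95% and 10.1% of all genes tested.

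**Figure D1:**
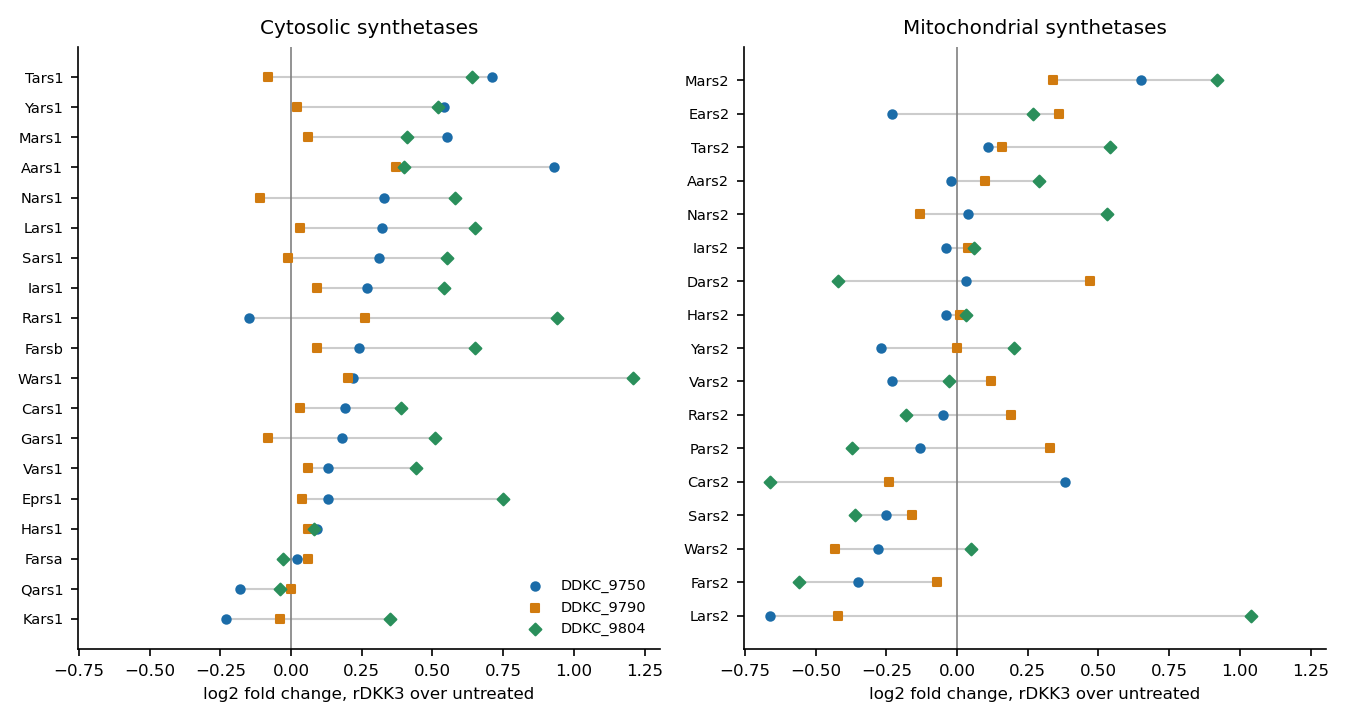
Log2 fold change (horizontal axis, rDKK3 over untreated, TMM CPM with a prior count of 2) of cytosolic (left, with 1 gene not shown) and mitochondrial (right) synthetases in DDKC_9750 (circles), DDKC_9790 (squares) and DDKC_9804 (diamonds), with a grey line spanning the lines. In the cytosolic panel the squares have a median of 0.04 and lie farthest right for Aars1 (0.37), Rars1 (0.26) and Wars1 (0.20), and the circles and diamonds lie mostly to the right, whereas the mitochondrial genes are spread on both sides, with Lars2 at -0.66, -0.42 and 1.04.

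Aars1 charges tRNA with alanine, and was the cytosolic synthetase with the largest fitted change. It lies at chr8:111759776-111784296 on the plus strand (GRCm39, ENSMUSG00000031960.15). Its level was 85.9 CPM untreated and 164 CPM with rDKK3 in DDKC_9750, 259 and 336 CPM in DDKC_9790, and 333 and 440 CPM in DDKC_9804. Treated samples were above untreated ones within every line, although the groups overlapped across lines. The fitted log2 fold change was 0.57 ± 0.16 (SE, 3 lines; edgeR adjusted p = 0.578), and Aars1 rose in the 12-library fit (adjusted p = 0.00174).

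Wars1, the tryptophanyl-tRNA synthetase, is also known as an interferon-inducible gene. It lies at chr12:108825956-108860100 on the minus strand (ENSMUSG00000021266.17). It went from 100.1 to 116 CPM in DDKC_9750, from 131 to 152 CPM in DDKC_9790 and from 118 to 274 CPM in DDKC_9804, so 1 line carried most of its change, and the fitted value was 0.21 without DDKC_9804. The fitted log2 fold change was 0.54 ± 0.23 (edgeR adjusted p = 0.607), and Wars1 rose in the 12-library fit (adjusted p = 0.0296). Of 19 tested interferon response genes, 2 were higher with rDKK3 in DDKC_9804 (45.2% of all genes were), 8 in DDKC_9790 (49.4%) and 18 in DDKC_9750 (48.5%). Some of them had few counts over the 12 libraries, such as Mx1 with 36 and Usp18 with 85. The part of the interferon response genes in the change of Wars1 was not tested.

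The other cytosolic genes named by the rule for same-direction changes were Yars1, Mars1 and Farsb, which charge tyrosine, methionine and, as a subunit, phenylalanine. Yars1 went from 54.3 to 79.3 CPM in DDKC_9750, from 128 to 130.4 CPM in DDKC_9790 and from 122 to 175 CPM in DDKC_9804. Its log2 fold change was 0.36 ± 0.15. Mars1 went from 85.0 to 124 CPM, from 166 to 173 CPM and from 165 to 219 CPM in the same order of lines. All 3 lines shared the direction in both genes, and DDKC_9790 moved least. Farsb had a log2 fold change of 0.33 ± 0.14, with 0.24, 0.09 and 0.65 in the 3 lines, and 0.16 without DDKC_9804. Its partner subunit Farsa had 0.02, 0.06 and -0.03, values near 0 for the other chain of the same enzyme. Yars1, Mars1 and Farsb rose in the 12-library fit (adjusted p of 0.0118, 0.0106 and 0.0235).

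Cars1, Iars1, Lars1, Sars1, Tars1 and Vars1, for cysteine, isoleucine, leucine, serine, threonine and valine, rose as well in that fit, with log2 fold changes from 0.20 to 0.42. On summed counts without DDKC_9804, Cars1 was at 0.11, Iars1 and Lars1 at 0.18, Sars1 at 0.15 and Vars1 at 0.10, from 0.20 to 0.33 with all lines. Without DDKC_9790, Sars1 was at 0.44 and Tars1 at 0.68. Sars1 and Tars1 did so without sharing a direction across lines. Tars1 had log2 fold changes of 0.71 in DDKC_9750, -0.08 in DDKC_9790 and 0.64 in DDKC_9804. Gars1 and Nars1, for glycine and asparagine, showed the same division between lines without a call. Gars1 was at 231 and 262 CPM, 601 and 569 CPM, and 380 and 539 CPM, untreated and treated, in DDKC_9750, DDKC_9790 and DDKC_9804. Eprs1, the fused glutamyl-prolyl enzyme, had a log2 fold change of 0.75 in DDKC_9804 against 0.13 and 0.04 in the other lines.

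Qars1, for glutamine, was lower in DDKC_9750 by 0.18 on the log2 scale, and within 0.04 of 0 in the other lines. Kars1, for lysine, had -0.23, -0.04 and 0.35, which gave no common direction. Hars1, Qars1, Farsa and Kars1 had fitted log2 fold changes between -0.08 and 0.08. Rars1, for arginine, had -0.15, 0.26 and 0.94, and no call. Of the 3 scaffold genes that hold the multi-synthetase complex together, Aimp1 and Aimp2 fell in the 12-library fit (log2 fold changes -0.22 and -0.54, adjusted p of 0.0226 and 0.00428). The third, Eef1e1, had -0.37, -0.10 and 0.69 in the lines.

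The promoters of several of these genes held the letters that ATF4 dimers are known to bind. RefSeq windows from 250 bases before to 50 bases after the transcript start (GRCm38.p6) matched 72 of the 110 members, 28 synthetases and 44 factors. Both strands were searched for the C/EBP-ATF response element, as TGATGNAA or TTGCATCA, where the second, read on the opposite strand, is one form of the first. A match was found in 5 of 13 cytosolic synthetases (38.5%), 0 of 15 mitochondrial synthetases and 1 of 44 factors (2.27%, Eif2s3x), against 4.51% of 27025 genes with a window. The E-box CACGTG, bound by MYC among others, was in 4 of 13 cytosolic synthetases (30.8%), 1 of 15 mitochondrial synthetases (6.67%) and 10 of 44 factors (22.7%), against 8.09% of all genes. A match is a description of letters and not a bound site. The 5 cytosolic promoters with the response element are shown here in part, 5′ to 3′ on the gene's strand, since these genes are among those compared between lines below. Capitals mark the response element and the E-box. The stretches lie at chr8:111033592-111033871 (Aars1, plus), chr6:55037911-55037998 (Gars1, plus), chr13:49682037-49682159 (Iars1, plus), chr15:11399629-11399733 (Tars1, minus) and chr4:129189846-129189932 (Yars1, plus) of GRCm38.p6.
Aars1: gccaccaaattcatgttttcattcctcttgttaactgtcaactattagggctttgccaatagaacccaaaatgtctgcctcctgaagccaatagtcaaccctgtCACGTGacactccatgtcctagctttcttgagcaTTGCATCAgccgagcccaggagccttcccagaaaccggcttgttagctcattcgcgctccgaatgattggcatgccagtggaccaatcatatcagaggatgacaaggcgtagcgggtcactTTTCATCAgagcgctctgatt
Gars1: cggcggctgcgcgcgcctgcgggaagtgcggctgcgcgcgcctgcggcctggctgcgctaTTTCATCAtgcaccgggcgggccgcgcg
Iars1: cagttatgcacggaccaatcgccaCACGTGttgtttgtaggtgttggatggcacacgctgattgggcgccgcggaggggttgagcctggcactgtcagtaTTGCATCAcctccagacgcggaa
Tars1: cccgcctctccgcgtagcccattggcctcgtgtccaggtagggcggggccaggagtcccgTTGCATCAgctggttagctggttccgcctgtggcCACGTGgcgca
Yars1: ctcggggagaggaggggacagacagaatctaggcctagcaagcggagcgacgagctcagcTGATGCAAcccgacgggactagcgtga
Aars1 held 2 response elements, which began 112 bases before the start and at base 10 of the transcript. In Gars1 and Tars1 the element began 30 and 15 bases before the start, and in Iars1 and Yars1 at bases 8 and 4 of the transcript. Aars1, Iars1 and Tars1 also held an E-box.

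The cytosolic synthetases also stood at different levels in the 3 lines. In untreated cells 15 of 20 were lowest in DDKC_9750 (32.1% of all tested genes were) and 14 of 20 were highest in DDKC_9790 (35.9%). None of the 17 mitochondrial synthetases was lowest in DDKC_9750. In the fit on summed counts, 10 of 37 synthetases passed the test for line, 8 cytosolic and 2 mitochondrial, against 35.3% of all tested genes, so their share was not above the background. The 12-library fit called 30 of 37 for line, against 77.7% of all genes. The cytosolic genes called were Aars1, Cars1, Gars1, Mars1, Nars1, Qars1, Sars1 and Yars1.

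Aars1 had the largest range over line means among cytosolic genes, 1.69 on the log2 scale (edgeR adjusted p = 0.00939 for line), with DDKC_9750 lowest. Cars1 had a range of 1.53, at 89.4, 274 and 222 CPM in untreated DDKC_9750, DDKC_9790 and DDKC_9804. Sars1 had a range of 1.52, at 216, 689 and 357 CPM. Gars1 and Yars1 had ranges of 1.25 and 1.16, again with DDKC_9750 lowest. In each of these 5 genes, treated DDKC_9750 cells stayed below untreated DDKC_9790 cells. Among mitochondrial genes Cars2 (range 1.71, adjusted p = 0.0303) and Rars2 (range 1.14, adjusted p = 0.0193) passed, and both were highest in DDKC_9750.

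**Figure D2:**
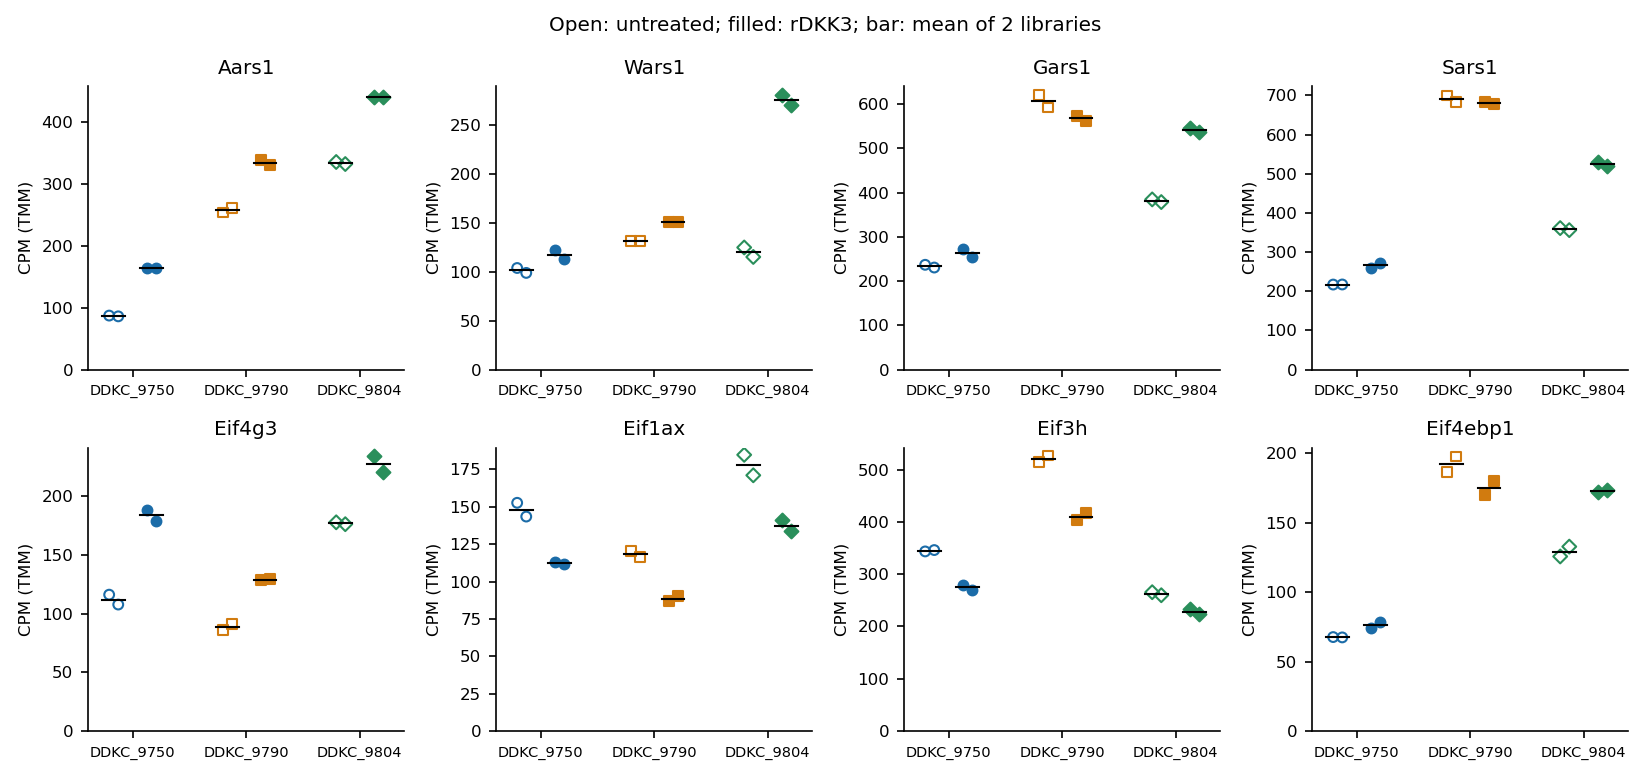
Level (vertical axis, TMM-scaled CPM, starting at 0) of 8 members in each of the 12 libraries, by line, with open symbols for untreated cells, filled symbols for rDKK3, and a bar at the mean of the 2 libraries. Paired libraries nearly coincide. Aars1 and Eif4g3 are higher, and Eif1ax and Eif3h lower, with rDKK3 in each line, whereas Gars1, Sars1 and Eif4ebp1 are higher with rDKK3 in DDKC_9750 and DDKC_9804 only.

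The ATF4 target list, which holds no tRNA synthetase, also had its lowest median in DDKC_9790. Most of its genes were lower there, whereas 13 of 20 cytosolic synthetases were higher. Of the 24 tested genes of the list, 23 were higher with rDKK3 in DDKC_9750 (48.5% of all genes were), 7 in DDKC_9790 (49.4%) and 22 in DDKC_9804 (45.2%). The median log2 fold changes of the list were 0.71, -0.21 and 0.47, against 0.20, 0.04 and 0.51 for the cytosolic synthetases. In untreated cells 22 of the 24 were lowest in DDKC_9750. Atf4 itself went from 216 to 364 CPM in DDKC_9750, from 644 to 556 CPM in DDKC_9790 and from 431 to 620 CPM in DDKC_9804. Asns, the asparagine synthetase that is a standard ATF4 target, went from 41.9 to 103.9 CPM, from 530 to 454 CPM and from 228 to 437 CPM. In the 12-library fit 7 of the 24 rose and 1, Ddit4, fell, against 7.95% and 10.1% of all genes tested. None of the 24 passed in the fit on summed counts. The part of ATF4 in the synthetase changes was not tested.

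**Figure D3:**
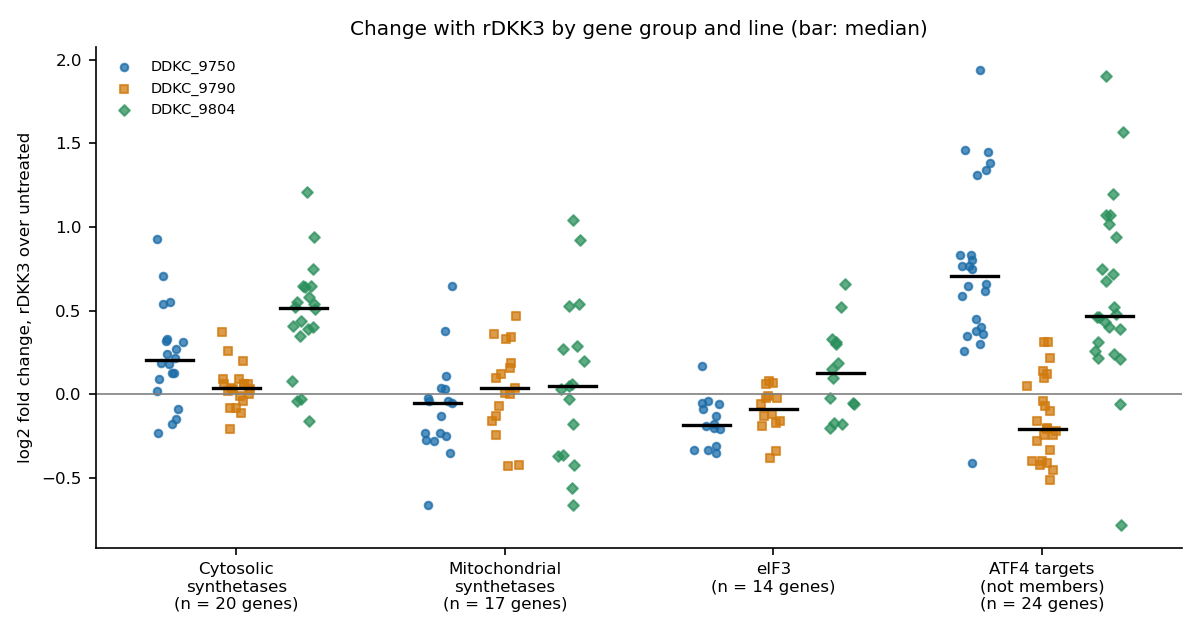
Log2 fold change (vertical axis, rDKK3 over untreated) of each gene in 4 groups, separately for the 3 lines, with a black bar at the median. Cytosolic synthetases have medians of 0.20, 0.04 and 0.51, and ATF4 targets 0.71, -0.21 and 0.47, in DDKC_9750, DDKC_9790 and DDKC_9804, so DDKC_9790 has the lowest median in both groups, while eIF3 has -0.18, -0.09 and 0.12.

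Mitochondrial synthetases had no common direction. With rDKK3, 5 of 17 were higher in DDKC_9750 (48.5% of all genes were), 10 in DDKC_9790 (49.4%) and 10 in DDKC_9804 (45.2%). Mars2, which charges methionine in mitochondria and lies at chr1:55276336-55287629 on the plus strand, had the largest fitted change of all synthetases, at a low level. It went from 10.2 to 16.02 CPM in DDKC_9750, from 5.68 to 7.19 CPM in DDKC_9790 and from 5.85 to 11.2 CPM in DDKC_9804. Its log2 fold change was 0.64 ± 0.20 (edgeR adjusted p = 0.578), and Mars2 and Tars2 rose in the 12-library fit (adjusted p of 0.00361 and 0.038). Tars2 had 0.27 on summed counts, and 0.14 without DDKC_9804. Fars2 was lower in all lines, by 0.35, 0.07 and 0.56 on the log2 scale, and fell in that fit (adjusted p = 0.0168). Its summed-count value was -0.32, and -0.20 without DDKC_9804. Sars2 was lower in all lines too, with a fitted value of -0.26 ± 0.18 and no call. Of 6 partners of mitochondrial tRNA charging and initiation, the amidotransferase subunit Qrsl1 rose and the initiation factor Mtif3 fell in the 12-library fit (log2 fold changes 0.49 and -0.38).

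Lars2, the mitochondrial leucyl enzyme, moved in opposite directions between lines. It lies at chr9:123195992-123291731 on the plus strand. It went from 302.5 to 191 CPM in DDKC_9750 and from 311 to 233 CPM in DDKC_9790, but from 236 to 487 CPM in DDKC_9804, so DDKC_9804 stood on the other side from both other lines. Libraries of the 2 conditions were apart in opposite directions in 2 lines for 35 of 93 tested members, against 37.9% of all tested genes. With at least 1.5-fold in both directions this held for 1 member, Lars2, against 6.32% of all tested genes. Its counts moved with those of Rn18s-rs5, an 18S ribosomal RNA gene of the annotation, which had log2 fold changes of -0.64, -0.29 and 0.97 against -0.66, -0.42 and 1.04 for Lars2. For each 100 counts of Rn18s-rs5 there were 8.25 to 9.69 counts of Lars2 in the 6 lower numbered libraries, and 6.83 to 8.28 in the 6 higher numbered ones. The mitochondrial ribosomal RNA genes did not follow this pattern, since mt-Rnr2 had 0.70, 0.34 and 0.08. These genes were chosen after their values were seen, and the part of ribosomal RNA in the counts of Lars2 was not tested. Without Lars2, the summed level of mitochondrial synthetases went from 418 to 401 CPM, from 363 to 381 CPM and from 336 to 348 CPM. With it, the sums went from 721 to 592 CPM, from 673 to 614 CPM and from 572 to 835 CPM.

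**Figure D4:**
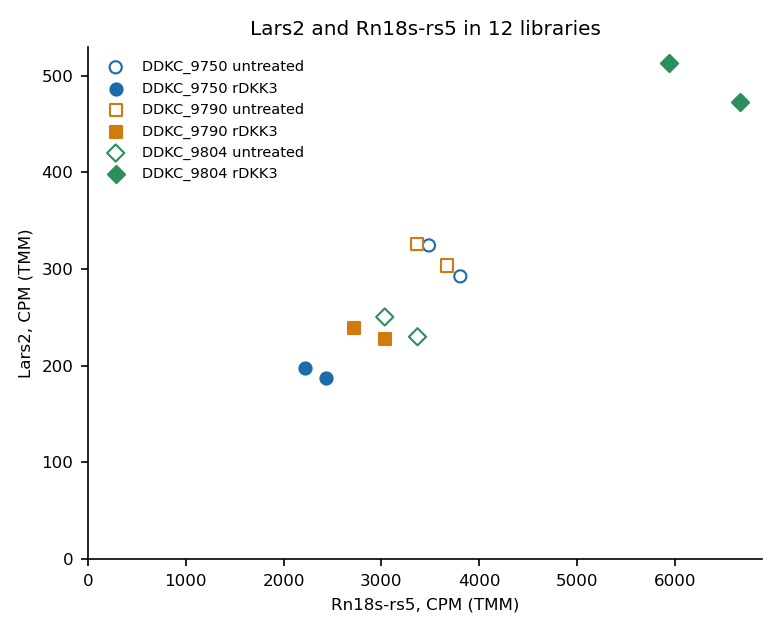
Level of Lars2 (vertical axis) against Rn18s-rs5 (horizontal axis), both in TMM-scaled CPM, in the 12 libraries, with open symbols for untreated and filled symbols for rDKK3. The rDKK3 libraries of DDKC_9804 are highest in both genes and those of DDKC_9750 are lowest in both.

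Set against exon length (CPM per kilobase of all annotated exons, GENCODE vM39), the untreated level of factors was highest for the helicase Eif4a1, at 316 ± 65.9 (SD, 3 lines), its cofactor Eif4b, at 303 ± 143, and Eif1, at 283 ± 36.1. These did not differ beyond their spread. The synthetases with the highest level on that scale were Nars1, at 146 ± 50.7, and Sars1, at 107 ± 61.8, and Mars2 was lowest at 0.641 ± 0.227.

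Initiation factors were spread on both sides of 0 with rDKK3. Their median log2 fold change was -0.03, and by line -0.17 in DDKC_9750, -0.08 in DDKC_9790 and 0.07 in DDKC_9804. On summed counts, the median over the factors lay farther below 0 without DDKC_9804, and was less negative without DDKC_9750 or without DDKC_9790. Of 56 tested factors, 12, 20 and 33 were higher in DDKC_9750, DDKC_9790 and DDKC_9804, against 48.5%, 49.4% and 45.2% of all genes. In all 3 lines 2 were higher (14.2% of all genes were) and 16 were lower (18.2%), a number that was 13 with the RLE scaling. The 16 include Eif1ad15, which had 4 and 1 counts against 0 in 2 of the lines, and 15 were outside its gene cluster. The summed level of the factors went from 10720 to 9864 CPM, from 12440 to 11980 CPM and from 10280 to 11510 CPM. Genes of MYC and the nucleolus showed a like order of lines, with 2, 9 and 11 of 11 higher, and Myc had log2 fold changes of -1, 0.15 and 1.07. Their part in the factor levels was not tested. Of 19 tested elongation and release genes, 4, 4 and 12 were higher, with a median of -0.06.

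**Figure D5:**
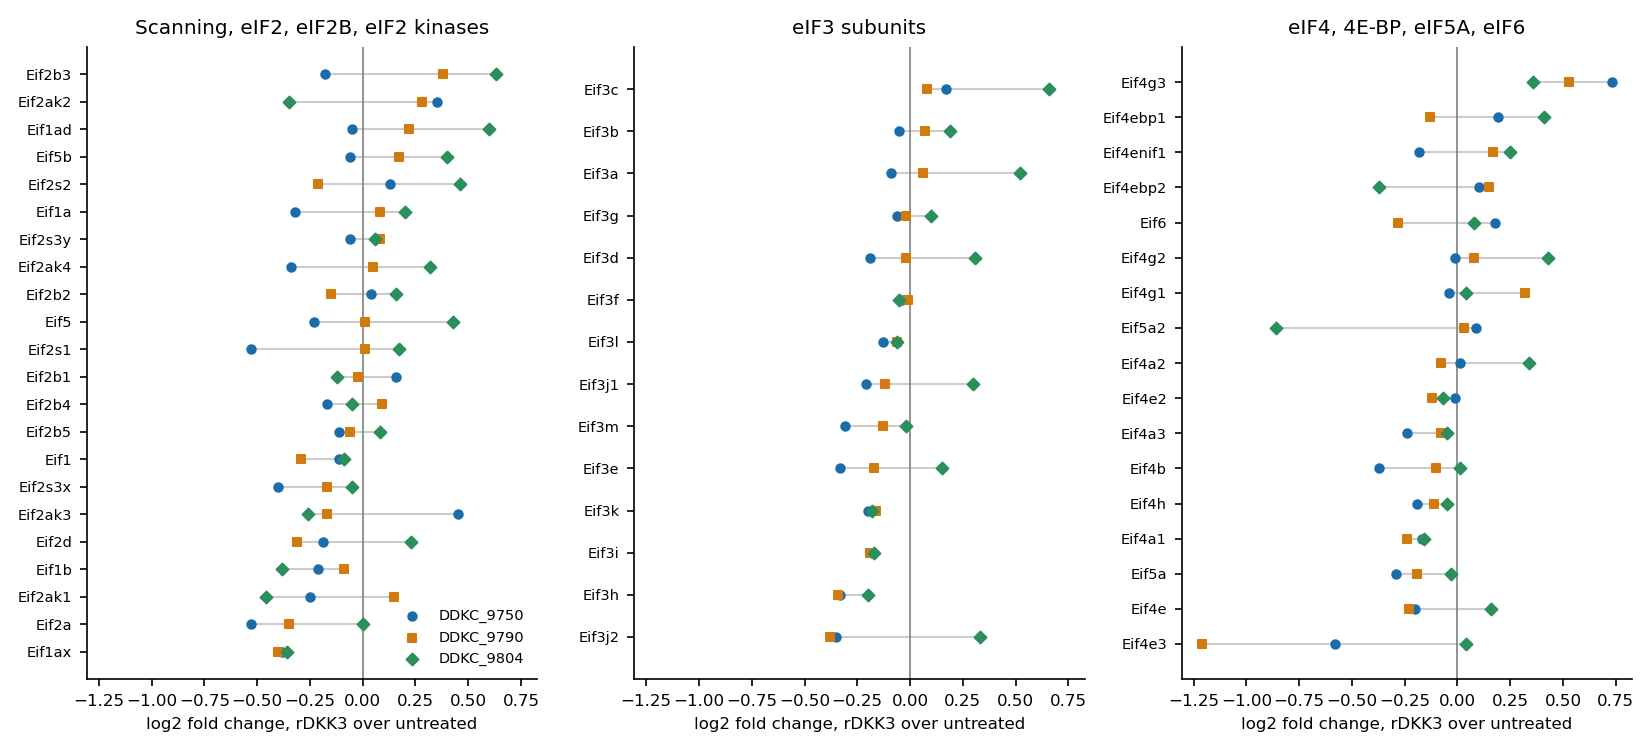
Log2 fold change (horizontal axis, rDKK3 over untreated) of the tested initiation factors outside the Eif1ad cluster, grouped by role, in DDKC_9750 (circles), DDKC_9790 (squares) and DDKC_9804 (diamonds). Eif4g3 lies right of 0 and Eif1ax left of 0 in all 3 lines, and the eIF3 subunits Eif3h, Eif3i and Eif3k have all symbols left of 0.

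Among scanning factors, Eif1ax, which encodes the X-linked eIF1A that opens the small subunit for scanning, was lower by nearly the same amount in every line. It lies at chrX:158155174-158172924 on the plus strand (ENSMUSG00000067194.7). It went from 146 to 112 CPM in DDKC_9750, from 118 to 89.3 CPM in DDKC_9790 and from 175 to 136 CPM in DDKC_9804. The line values were -0.38, -0.40 and -0.36. The fitted log2 fold change was -0.38 ± 0.10 (edgeR adjusted p = 0.578), and Eif1ax fell in the 12-library fit (adjusted p = 0.000268). Its autosomal paralog Eif1a had -0.32, 0.08 and 0.20, and reads of such related copies can be hard to assign. Eif1 and Eif1b, which guard start codon choice, were lower in all 3 lines with fitted values of -0.16 ± 0.12 and -0.22 ± 0.14. Both were called only when the 12-library edgeR fit also held a term for the library number series (adjusted p of 0.0384 and 0.0465). Eif1 had -0.11, -0.29 and -0.09 in the lines, and -0.09 on summed counts without DDKC_9790. Eif2a, a factor for initiator tRNA delivery outside the eIF2 complex, fell in the 12-library fit (log2 fold change -0.30), with -0.53, -0.35 and 0 in the lines, and -0.17 on summed counts without DDKC_9750.

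The eIF2 subunits differed from each other. Eif2s1, the subunit that the stress kinases phosphorylate, went from 121 to 84.2 CPM in DDKC_9750, from 122 to 122.5 CPM in DDKC_9790 and from 115 to 129 CPM in DDKC_9804. Eif2s2 had log2 fold changes of 0.13, -0.21 and 0.46. The third subunit has an X-linked and a Y-linked gene, and Eif2s3y was present in all 3 lines at 44.6 to 54.5 CPM, with a log2 fold change of 0.02 ± 0.11. Eif2s3x was lower in all lines, by 0.40, 0.17 and 0.05 on the log2 scale, with an adjusted p of 0.663. In Eif2s3x and Eif3j1 the higher numbered libraries stood well above the lower numbered ones in every pair. In untreated DDKC_9750, for instance, Eif2s3x was at 39.6 and 66.5 CPM, and Eif3j1 at 16.2 and 33.7 CPM. The 12-library fit therefore gave both genes a standard error of 0.29.

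None of the 5 eIF2B subunits and none of the 4 eIF2 kinases passed for treatment or for line in the fit on summed counts. That fit called 1 of all 15165 tested genes for treatment and 35.3% for line. In the 12-library fit Eif2b2, Eif2b3, Eif2ak1, Eif2ak2 and Eif2ak3 were called for line and the others of both groups were not, against 77.7% of all genes. Eif2b5, the catalytic subunit, was at 67.1 to 78.9 CPM in all 6 summed samples, with a fitted change of -0.03 ± 0.11. The kinases spanned the lines in different ways. Eif2ak3 (PERK, the sensor of unfolded proteins) had log2 fold changes of 0.45, -0.17 and -0.26. Eif2ak4 (GCN2, the sensor of uncharged tRNA) had -0.34, 0.05 and 0.32, and Eif2ak1 (HRI, known for heme sensing) had -0.25, 0.15 and -0.46. Eif2ak2 (PKR, the interferon-inducible sensor of double-stranded RNA) had 0.35, 0.28 and -0.35. RNA levels say nothing of the activity of these kinases.

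The eIF3 subunits leaned lower in DDKC_9750 and DDKC_9790 and higher in DDKC_9804. Of 14 eIF3 genes, 1, 3 and 8 were higher with rDKK3 in these lines, against 48.5%, 49.4% and 45.2% of all genes. In all 3 lines 6 were lower (18.2% of all genes were), or 5 with the RLE scaling, and 1 was higher (14.2%). Eif3h, at chr15:51649954-51728919 on the minus strand, went from 343 to 273.5 CPM, from 523 to 413 CPM and from 261 to 227 CPM. Its log2 fold change was -0.29 ± 0.11 (edgeR adjusted p = 0.585), and Eif3h fell in the 12-library fit (adjusted p = 0.00204). Eif3i and Eif3k fell in that fit too, by 0.18 and 0.19 on the log2 scale, with line values that all lay between -0.20 and -0.16. Eif3c rose there (log2 fold change 0.30, adjusted p = 0.0423), with 0.17, 0.08 and 0.66 in the lines, and had a summed-count value of 0.12 without DDKC_9804. Eif3a, the large scaffold subunit, had -0.09, 0.06 and 0.52.

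In the cap-binding complex, Eif4g3 had the lowest p-value of all tested members in the fit on summed counts. It encodes a scaffold that joins the cap-binding protein to the helicase and to eIF3, and lies at chr4:137720333-137935819 on the plus strand (ENSMUSG00000028760.18). It went from 110.1 to 182 CPM in DDKC_9750, from 89.7 to 129.5 CPM in DDKC_9790 and from 176 to 225.5 CPM in DDKC_9804. The line values were 0.73, 0.53 and 0.36. The fitted log2 fold change was 0.54 ± 0.12 (edgeR adjusted p = 0.578; DESeq2 adjusted p = 0.05), and Eif4g3 rose in the 12-library edgeR fit (adjusted p = 0.000384). Its paralog Eif4g1 stayed between 531 and 668 CPM, with -0.04, 0.32 and 0.04. Eif4g2, a relative that lacks the cap-binding contact, had -0.01, 0.08 and 0.43.

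Eif4e, the cap-binding protein, went from 68.0 to 59.4 CPM, from 131 to 112 CPM and from 85.2 to 95.3 CPM. Eif4a1, the main helicase, was lower in all lines with a fitted value of -0.19 ± 0.11 (adjusted p = 0.658, and 0.0126 in the 12-library edgeR fit with the series term). Eif4a2 had 0.01, -0.08 and 0.34. Eif4e3, a minor cap-binding relative, was at 13.1, 9.37 and 1.597 CPM in untreated cells of the 3 lines, and fell in the 12-library fit (log2 fold change -0.71, adjusted p = 0.0286) through DDKC_9750 and DDKC_9790. Its summed-count value was -0.65, and -0.30 without DDKC_9790. Eif4ebp1, a translational repressor released from eIF4E by mTORC1 signaling and also an ATF4 target, went from 67.1 to 76.8 CPM, from 194 to 177 CPM and from 130.3 to 173 CPM. It thus shared the order and the direction of the lines with the synthetases Gars1 and Sars1. Eif4ebp2 had 0.10, 0.15 and -0.37, with no call.

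Eif5a, the hypusine-modified factor that helps ribosomes past difficult peptide bonds, was lower in all lines with a fitted value of -0.17 ± 0.12 (adjusted p = 0.708, and 0.0353 in the 12-library edgeR fit with the series term), and -0.10 without DDKC_9750. Eif5a2 was at 2.30 to 6.89 CPM, with 0.09, 0.03 and -0.86. Eif6, which keeps the large subunit free until it is mature, had 0.18, -0.28 and 0.08.

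Between lines, 21 of 53 tested factors outside the Eif1ad cluster passed the test in the fit on summed counts (39.6%), against 35.3% of all tested genes. Eif4ebp1 had a range of 1.37 over line means on the log2 scale (adjusted p = 0.0113), lowest in DDKC_9750. Eif4e3 had a range of 2.66 (adjusted p = 0.0141) and was lowest in DDKC_9804. Eif3j2, which shares sequence with Eif3j1, had a range of 1.40 and was highest in DDKC_9750, at 20.1 CPM untreated against 7.65 and 11.1 CPM.

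The widest differences between lines were in the Eif1ad cluster, 16 related eIF1A-like genes within chr12:87532731-88290796 that are known from early embryos. Eif1ad2 (chr12:87783347-87787446, plus strand) had 8.13 CPM untreated and 11.3 CPM with rDKK3 in DDKC_9804, and no count in the other lines. Taking 3 counts per summed sample as the floor, it was at least 81.5-fold and 63.0-fold higher in untreated DDKC_9804 than in untreated DDKC_9750 and DDKC_9790. Floors and intervals of this kind cover counting error only. Over the cluster, DDKC_9804 had 775 counts on 14 genes, DDKC_9750 12 counts on 4 genes and DDKC_9790 9 counts on 6 genes. Eif1ad14 and Eif1ad15 were at 1.28 and 2.31 CPM in untreated DDKC_9804 and at or under 0.133 CPM in every sample of the other lines. These 3 genes passed the filter on low counts only through DDKC_9804, so their levels are a description, and their calls for line, which made the count 24 of 56, are not used. The other 13 genes of the cluster were not tested and reached at most 1.23 CPM. Reads of such similar copies may be divided or lost in counting, so values of single copies are uncertain. The other untested members were Eif4a3l1, Eif4a3l2, Eif4e1b and Eif4ebp3, with at most 0.971 CPM in any summed sample. They are known mainly from germ cells or, for Eif4ebp3, as the least common 4E-binding protein.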

How the data were processed

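RNA from untreated and rDKK3-treated cells of 3 lines was sequenced in 12 libraries. The authors aligned reads with STAR 2.7.9a to GRCm39 and counted them per gene with strand, and the deposited values are raw counts, not normalized. The submitters' processing notes also name DESeq2 1.38.0, Picard 2.19.2 and R 4.2.2.

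The 2 libraries of a line and condition were compared over genes with a mean count of at least 20, differed by less than sampling noise apart from a common shift, and were summed, so n is 3 lines. No source says whether they came from separate cultures. Genes passing edgeR's filterByExpr were scaled by TMM and tested by edgeR's quasi-likelihood test (edgeR 4.0.16, limma 3.58.1, R 4.3.3) with line as a block and Benjamini-Hochberg adjustment at 0.05. Line was tested in the same fit. A second fit took the 12 libraries singly. The line pairs the samples because untreated and treated cells are the same line. Deviations from the group means correlated at 0.822, 0.874 and 0.805 within the lines. Log2 CPM used a prior count of 2. Scripts were tested on simulated data.

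Alternatives were RLE scaling, DESeq2 1.42.0, other filters, no line block, the library number series as a term, and leaving out each replicate or line. The rule for named genes took, for factors and synthetases separately, up to 6 members with the largest fold change in each direction among those sharing it in all lines (average log2 CPM of at least 1), the 6 with the largest range over lines among those called, a list of regulators, and every untested member. Other members and ATF4, MYC, interferon and mitochondrial partner genes given with values were chosen after their values were seen. The members and lists were chosen with earlier results of these data known. Depth sets a floor of 3 counts, 0.0856 to 0.291 CPM in a summed sample. Some items are not reported here by name, and remain in the counts and medians.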

Additional observations from a re-analysis of the deposited data

Results flagged for a closer look

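Lars2 stood out because its log2 fold change with rDKK3 was 1.04 in DDKC_9804 and -0.66 in DDKC_9750, with both libraries of each condition on opposite sides in these lines. Lars2 was the 1 member of 93 tested with a change of at least 1.5-fold in both directions, against 6.32% of all tested genes, and the libraries were apart in opposite directions at any size in 35 members, against 37.9%. The difference between the lines was not tested. Rn18s-rs5 had 0.97 and -0.64 in the same lines, and its part in the counts of Lars2 was not tested.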

How the results depend on the processing

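For treatment, 1 gene was higher and 0 were lower over all genes. The 12-library fit gave 1205 and 1539, and with the library number series as a term 1318 and 1806. DESeq2 gave 33 and 70, with 3528 adjusted p-values not given, no filter on low counts gave 41 and 49, and at least 10 counts in every summed sample gave 0 and 0. Without the replicate block (line left out), 0 genes were called, 94 had an unadjusted p under 0.05, and none of these was a member. Leaving out a replicate gave 1 to 6 genes higher, and leaving out a line 0 to 2. Factors called higher and lower were 2 and 6 in the 12-library fit, 2 and 10 with the series term, and 1 and 0 in DESeq2. Synthetases were 13 and 2 in both 12-library fits and 0 in every other setting. For line, 5348 genes, 24 factors and 10 synthetases became 11790, 45 and 30 in the 12-library fit, and 12211, 48 and 30 with the series term. Leaving out the Eif1ad cluster, chosen after seeing the data, gave 21 factors. The 34 members called for line shared 30 to 34 with the other settings. These 34 include Eif1ad2, Eif1ad14 and Eif1ad15, whose calls are not used. The overlap was not counted without them, so no stability is read from it. The median of mitochondrial synthetases ranged from -0.03 to 0.05 without one line, and from -0.04 to 0.03 without one replicate.

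The fitted fold changes of 13 named members changed sign in some setting and that of Eif1ad2 went to 0, none of them called, and the cause was not tested. Leaving out 1 line or replicate at a time gave -0.46 to 0.09 for Cars2, -3.52 to 0.54 for Eif1ad14, 0 to 0.57 for Eif1ad2, -0.02 to 0.32 for Eif2ak2, -0.21 to 0.14 for Eif2ak3, -0.14 to 0.19 for Eif2ak4, -0.08 to 0.02 for Eif2b5, -0.26 to 0.10 for Eif2s1, -0.06 to 0.08 for Eif2s3y, -0.04 to 0.18 for Eif4a2, -0.13 to 0.13 for Eif4ebp2, -0.39 to 0.06 for Eif5a2, -0.09 to 0.14 for Eif6 and -0.14 to 0.16 for Kars1. Eif3j2 kept its sign but was 0 after rounding without DDKC_9790. Eif1ad14 was -0.78 in DESeq2. Both Eif1ad genes had at most 3 counts in each of DDKC_9750 and DDKC_9790, so these values carry no information on treatment there. Eif6 was 0.05 without the block, 0.01 with RLE and DESeq2, and 0 with the stricter filter. With no filter, Eif2ak3 was -0.04, Eif2ak4 -0.03, Eif2s3y -0.02 and Kars1 -0.02. In the 12-library fits Eif2ak3 was -0.01 and Eif2s3y 0.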
